A study of Mus musculus with 6 samples.

Results

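The urea cycle and the breakdown of amino acids were examined through 50 enzyme genes in hepatocytes isolated from mouse liver. The members were a given list of mouse symbols, and all 50 were matched to an Ensembl gene among the 55487 gene rows of the count tables. The mice were adults of 6 to 8 weeks, bred by crossing heterozygotes, and carried either 2 AEG-1-C75S alleles or 2 wild type ones (WT). Cells were lysed for RNA at 48 h after their isolation. AEG-1, the product of *Mtdh*, is an endoplasmic reticulum protein, and the C75S allele exchanges its cysteine 75, a palmitoylation site, for serine. Each of the 2 genotypes had 3 libraries, all with the treatment label Control. Whether each library stands for its own mouse is not in the labels, so p-values measure only the spread between these libraries, which may be technical. A gene count does not read the changed codon, so these values do not check the genotype labels.

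The liver clears the nitrogen of amino acids. Transaminases pass amino groups to glutamate, glutamate dehydrogenase frees them as ammonia, and the urea cycle joins that ammonia and the nitrogen of aspartate into urea. The remaining carbon skeletons are burned or turned into glucose along routes particular to each amino acid, and methionine and cysteine also supply methyl groups, glutathione and taurine. Many of these enzymes are high in periportal hepatocytes, are raised by glucagon and glucocorticoids, and decline when hepatocytes are kept in culture.

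Gene counts per library ran from 16944723, in C75S replicate 1, to 21044292, and a count of 3 corresponded to 0.143 to 0.177 CPM, the count scaled to a common library size. Member genes took 0.965% to 1.09% of gene counts in C75S and 1.06% to 1.14% in WT, and C75S replicate 1 was the lowest of the 6 libraries for 23 of the 50 members. Hepatocyte markers were high, with albumin (*Alb*) between 55643 and 70067 CPM. The defining Kupffer cell markers *Clec4f*, *Cd5l* and *Adgre1* reached at most 0.19 CPM, and 4 of 5 lymphocyte markers were at 0 in every library. Over 7 cholangiocyte markers the summed level was 144 to 198 CPM in C75S and 122 to 134 CPM in WT, mostly *Spp1*. *Spp1* was higher in C75S without overlap, at 105 to 157 CPM against 83.9 to 96.5 CPM (log2 fold change 0.53, edgeR unadjusted p = 0.0201, adjusted p = 0.235). *Sox9* was at 27.5 to 31.4 CPM (-0.06) and *Cftr* at 0, and *Krt19* rose (edgeR adjusted p = 0.00151). *Epcam*, which was not tested, was lower in C75S without overlap, at 0 to 0.107 CPM against 0.146 to 0.57 CPM. Over 8 stellate cell and fibroblast markers the summed level was 57.7 to 74.4 CPM in C75S and 72.1 to 93.5 CPM in WT. It was mostly *Reln*, at 49.9 to 88.1 CPM (log2 fold change -0.36, edgeR adjusted p = 0.394). *Des* was at most 0.16 CPM, and *Acta2* rose (edgeR adjusted p = 0.0255). Over 8 endothelial markers the summed level was 33.3 to 43.2 CPM in C75S and 31.3 to 42.0 CPM in WT, mostly *Stab2* (log2 fold change -0.09). Of the 6 tested, 5 had positive values, with a median of 0.55 and 0 called by edgeR. *Pecam1* (0.70), *Lyve1* (0.85) and *Kdr* (0.69) were higher in C75S without overlap, at no more than 3.80 CPM, and the first 2 had an unadjusted p-value under 0.05. Over 11 Kupffer cell and macrophage markers the summed level was 97.1 to 141 CPM in C75S and 104 to 135 CPM in WT, with 0 of 2 tested markers called. This sum was mostly *Cd68*, at 94.9 to 138 CPM (log2 fold change 0.02), and 9 of the 11 were under 1 CPM in every library. Of 8 hepatocyte markers 1, *Apoa2*, rose and 0 were called lower, with 3 positive and 5 negative values. *Alb* (log2 fold change -0.15) and *Cyp3a11* (-0.26) also had an unadjusted edgeR p-value under 0.05, and *Cyp3a11* was lower in C75S without overlap. Over all genes tested 9.02% were higher and 8.96% lower in C75S without overlap, and 13.4% had an unadjusted edgeR p-value under 0.05. At an adjusted edgeR p-value under 0.05, 1.74% rose and 1.37% fell. The part of other cell types in the results was not tested. In bulk RNA, fewer cells of a type and less RNA per cell cannot be told apart.

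Between C75S and WT, 7 of the 50 members (14.0%) passed the threshold, a Benjamini-Hochberg adjusted p-value under 0.05 by quasi-likelihood in edgeR. Of all 12741 genes tested 3.11% passed. *Otc*, of the urea cycle, and *Aass*, of lysine breakdown, rose in C75S. *Cdo1* and *Csad*, the cysteine to taurine route, fell, as did *Hpd* of tyrosine breakdown, *Ftcd* of histidine breakdown and *Dpys* of pyrimidine breakdown. So 2 members rose, against a background of 1.74% of genes, and 5 fell, against 1.37%. The members did not move together: 25 had a positive and 25 a negative log2 fold change, with a median of -0.003, equal to the median of -0.003 over all genes tested. Members were measured at a median of 56.4 CPM and all tested genes at 23.1 CPM, and the part of this difference in level in the share of calls was not tested.

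The count depended on WT replicates 2 and 3. It was 2 members without WT replicate 3 and 3 without WT replicate 2, and between 5 and 8 in the fits that left out any other library. *Otc* kept its call in all 15 alternative fits, and each of the other 6 lost it in at least 2. Before adjustment 15 members (30.0%) had a p-value under 0.05, against 13.4% of all genes. For 13 members (26.0%) the libraries of the 2 genotypes did not overlap, 4 higher and 9 lower in C75S, against 9.02% and 8.96% of all genes.

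**Figure D1:**
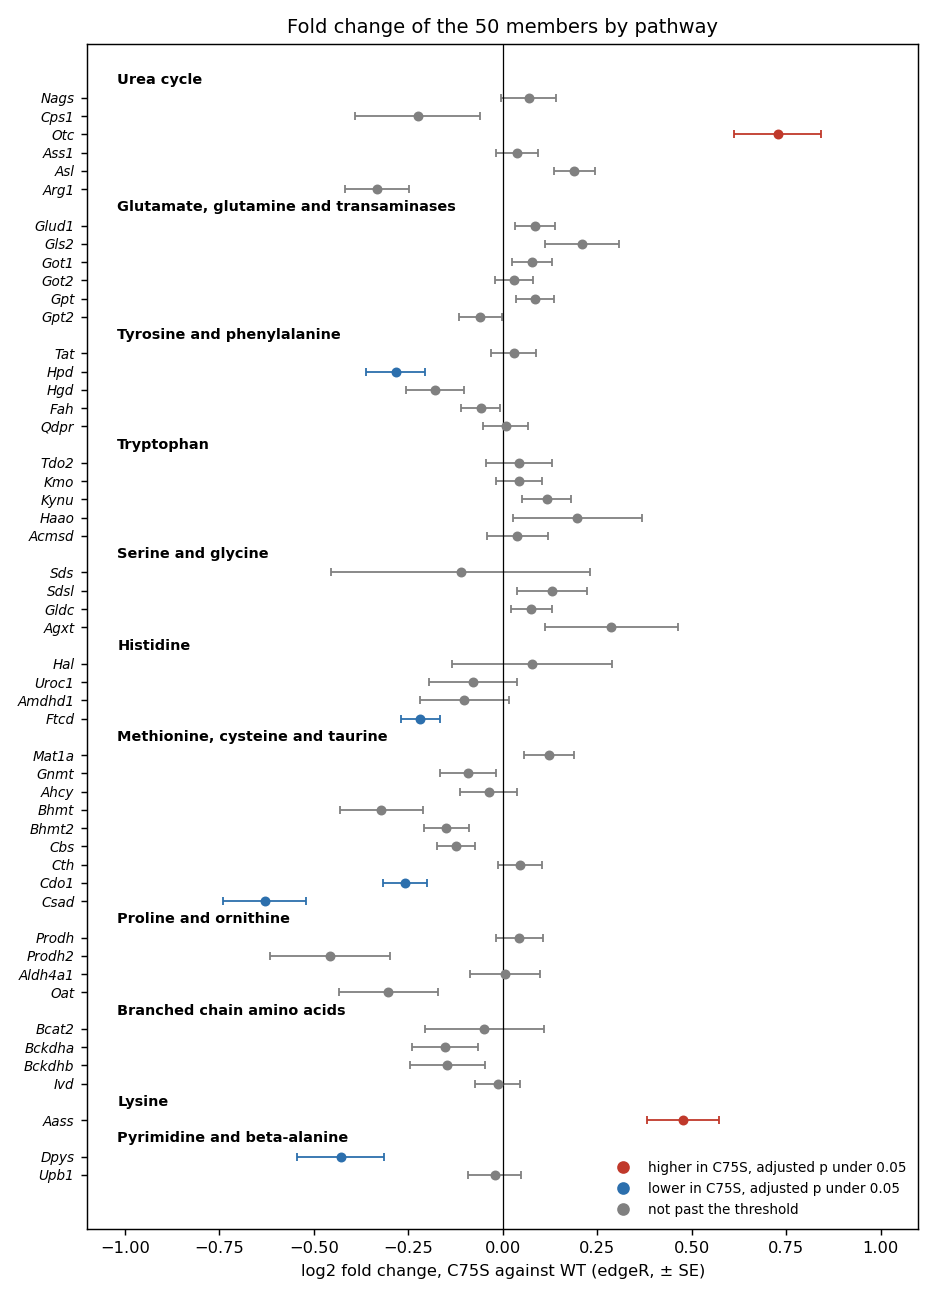
For each of the 50 members, grouped by pathway, the horizontal axis gives the log2 fold change (C75S over WT), with the standard error from edgeR as the bar. Red marks the 2 members that rose, blue the 5 that fell at an adjusted p-value under 0.05, and grey the 43 that did not pass, which lie between -0.46 and 0.29.

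Levels of different genes were compared as CPM per kb of exonic length. On this scale the members spanned a ratio of 1319 between the highest and the lowest. *Cdo1*, cysteine dioxygenase, was the highest at 779 ± 86.6 CPM per kb (mean ± SD, n = 6 libraries, both genotypes together). *Arg1*, arginase, followed at 463 ± 71.8, and *Cps1*, carbamoyl phosphate synthetase, at 462 ± 73.6, so these neighbours differed by less than their spread. *Glud1*, glutamate dehydrogenase, was at 302 ± 12.6 and *Gpt2*, the mitochondrial alanine transaminase, at 213 ± 11.4 CPM per kb. These 5 genes took 66.8% to 70.5% of the summed CPM of the members in each library. At the other end lay *Hal*, histidine ammonia lyase, at 0.591 ± 0.078, *Sds*, serine dehydratase, at 0.833 ± 0.224, *Haao* at 1.32 ± 0.232 and *Bcat2* at 1.499 ± 0.135 CPM per kb. *Otc*, the urea cycle enzyme that joins carbamoyl phosphate to ornithine, was at 3.07 ± 0.859 and ranked below the other 5 enzymes of its pathway.

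**Figure D2:**
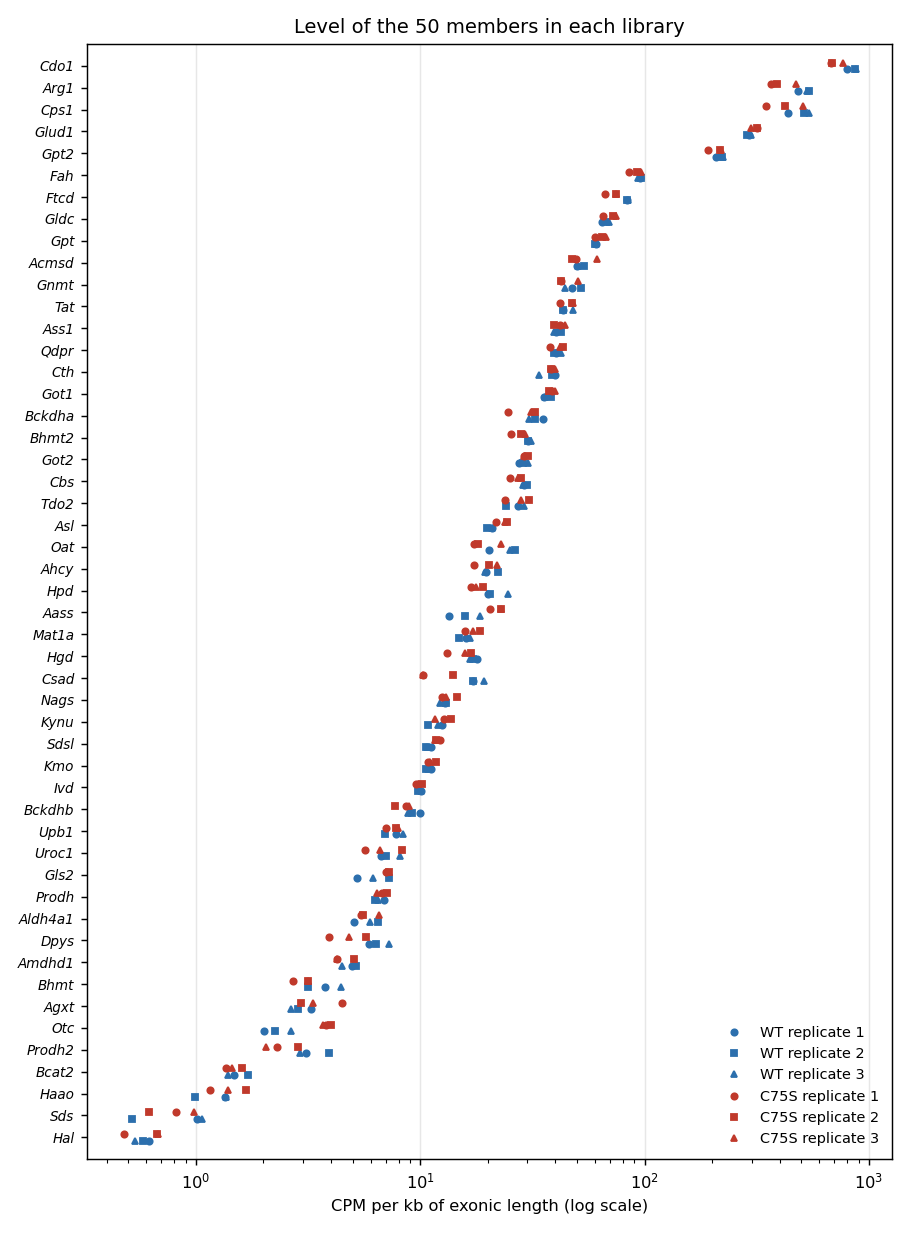
Each row is a member, and each point is its level in 1 library, in CPM per kb of exonic length on a log axis, with WT in blue and C75S in red. *Cdo1*, *Arg1* and *Cps1* lie at the top and *Sds* and *Hal* at the bottom, and the span between genes is far wider than the span between libraries of one gene.

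Within pairs of related enzymes the level per kb was unequal in the same direction in every library. *Gpt2* exceeded *Gpt*, the cytosolic alanine transaminase, by 3.19 to 3.69 times, and *Got1*, the cytosolic aspartate transaminase, exceeded the mitochondrial *Got2* by 1.19 to 1.38 times. In CPM not divided by length *Got2* was the higher, at 132 to 145 CPM against 90.8 to 101 CPM for *Got1*. The direction for *Got1* and *Got2* thus rests on the lengths used, 2539 and 4824 bp over all annotated exons. *Bhmt2*, which uses S-methylmethionine as methyl donor, exceeded *Bhmt*, which uses betaine, by 7.07 to 9.58 times. These neighbours on chromosome 13 are 17758 bp apart, and reads that match both were not counted. *Sdsl* exceeded its neighbour *Sds* by 10.2 to 20.6 times, at 18 to 37 counts per library for *Sds*. *Prodh*, proline dehydrogenase, exceeded *Prodh2*, which acts on hydroxyproline, by 1.62 to 3.14 times.

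In the urea cycle 1 of 6 enzymes rose, *Otc*, and 0 fell, against 1.74% and 1.37% of all genes. *Otc* (ENSMUSG00000031173, chromosome X, 10252305 to 10321024, plus strand, in GRCm38 as for all positions here) stood at 16.1, 16.9 and 15.6 CPM in the C75S libraries and at 8.55, 9.55 and 11.3 CPM in the WT libraries. Every C75S library lay above every WT library. The log2 fold change was 0.73 (SE 0.11, edgeR adjusted p = 0.000322), a fold of 1.66. It ranged from 0.64 to 0.84 in the fits that left out a library.

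The enzymes before *Otc* did not pass. *Nags* makes N-acetylglutamate, the activator of carbamoyl phosphate synthetase. It was at 35.6, 41.2 and 36.9 CPM in C75S and 36.7, 37.1 and 34.7 CPM in WT, and its log2 fold change was 0.07 (SE 0.07, edgeR adjusted p = 0.756). *Cps1* (chromosome 1, 67123026 to 67231259) makes carbamoyl phosphate from ammonia. It was at 1924, 2339 and 2829 CPM in C75S and 2424, 2856 and 3012 CPM in WT, and the genotypes overlapped. Its log2 fold change was -0.23 (SE 0.16, edgeR adjusted p = 0.654), with the widest standard error of the 6 enzymes, and it was -0.10 without C75S replicate 1. With the replicate number as a block it passed (adjusted p = 0.0117).

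The enzymes after *Otc* pointed in different directions. *Ass1*, which joins citrulline to aspartate, was at 101, 94.8 and 107 CPM in C75S and 97.4, 102 and 95.3 CPM in WT (log2 fold change 0.04, SE 0.05, edgeR adjusted p = 0.832), and turned to -0.0045 without C75S replicate 3. *Asl* (chromosome 5, 130011258 to 130029247) splits argininosuccinate into arginine and fumarate. It was at 105, 117 and 116 CPM in C75S and 101, 95.6 and 100.5 CPM in WT, with no overlap. Its log2 fold change was 0.19 (SE 0.05) and its edgeR adjusted p = 0.0544 missed the threshold, though it was 0.024 without C75S replicate 1. *Arg1* (chromosome 10, 24915221 to 24927484), which releases urea from arginine, was at 813, 868 and 1059.6 CPM in C75S and 1073, 1205 and 1176 CPM in WT, again with no overlap. C75S replicate 3 lay closest to WT. The log2 fold change was -0.33 (SE 0.08, edgeR adjusted p = 0.0524), and it passed without C75S replicate 3 (-0.45, adjusted p = 6.57e-05) or WT replicate 1 (adjusted p = 0.0494). *Asl* passed in 5 and *Arg1* in 7 of 15 alternative fits.

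**Figure D3:**
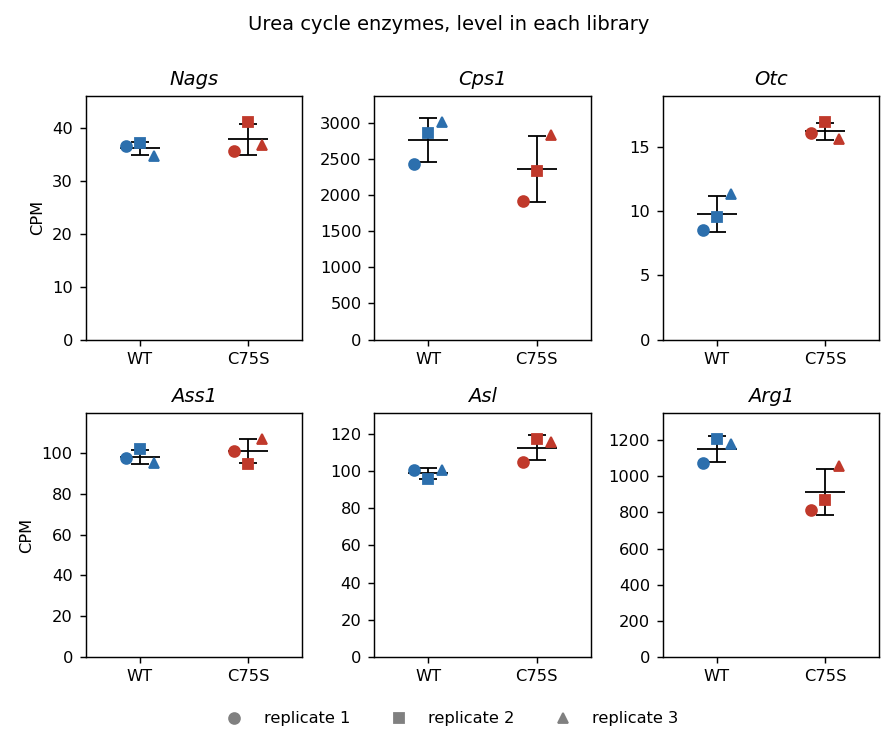
The level of each urea cycle enzyme is shown in CPM on a linear axis from 0, with WT in blue and C75S in red, 1 symbol per library, and the mean ± SD (n = 3) in black. *Otc* stands at 15.6 to 16.9 CPM in C75S and 8.55 to 11.3 in WT, *Asl* and *Arg1* separate by less, and *Cps1* overlaps.

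Sulfur amino acid breakdown, the largest list with 9 of the 50 members, held 2 of the 5 members that fell. None of the 9 rose. Over all genes tested 1.37% fell and 1.74% rose. Cysteine dioxygenase, *Cdo1*, oxidises cysteine to cysteine sulfinate, and *Csad* then removes its carboxyl group on the way to taurine, so these are consecutive steps. *Csad* (ENSMUSG00000023044, chromosome 15, 102176999 to 102204724 on the minus strand) was at 39.4, 53.4 and 39.3 CPM in C75S and 65.9, 65.9 and 73.5 CPM in WT. C75S replicate 2 lay between the other C75S libraries and WT. *Csad* fell by 0.63 on the log2 scale (SE 0.11, edgeR adjusted p = 0.0126), the largest fall among the members, and missed the threshold without WT replicate 1 (0.0674) or WT replicate 3 (0.0594).

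*Cdo1* (ENSMUSG00000033022, chromosome 18, 46713193 to 46728395 on the minus strand) was at 1114, 1124 and 1262 CPM in C75S and 1318, 1431 and 1439 CPM in WT. The genotypes did not overlap. It fell by 0.26 on the log2 scale (SE 0.06, edgeR adjusted p = 0.0128), and missed the threshold without C75S replicate 2 (0.067) or without WT replicate 2 (0.108) or 3 (0.0727).

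The methionine part of the pathway showed differences that did not pass. *Bhmt*, betaine-homocysteine methyltransferase, was at 15.6, 18.2 and 18.2 CPM in C75S and 21.6, 18.1 and 25.4 CPM in WT (log2 fold change -0.32, SE 0.11, edgeR adjusted p = 0.136). WT replicate 2 lay among the C75S libraries, and without it *Bhmt* passed (0.0424). *Bhmt2* was at 62.7, 69.3 and 72.0 CPM in C75S and 74.9, 74.4 and 77.0 CPM in WT, without overlap (log2 fold change -0.15, SE 0.06, edgeR adjusted p = 0.217). *Cbs*, cystathionine beta-synthase, which commits homocysteine to cysteine, was at 188, 209.9 and 204 CPM in C75S and 217, 224 and 216 CPM in WT (-0.12, SE 0.05, edgeR adjusted p = 0.24). The other 4 had log2 fold changes from -0.09 to 0.12: *Gnmt* and *Ahcy*, which use and then hydrolyse the products of S-adenosylmethionine, were at -0.09 and -0.04, *Cth*, which releases cysteine, at 0.05 and *Mat1a*, which makes S-adenosylmethionine, at 0.12.

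In tyrosine breakdown 1 of 5 members fell and 0 rose, against 1.37% and 1.74% of all genes. *Hpd*, 4-hydroxyphenylpyruvate dioxygenase (ENSMUSG00000029445, chromosome 5, 123171807 to 123182727 on the minus strand), was at 35.8, 40.4 and 37.9 CPM in C75S and 42.7, 43.7 and 52.5 CPM in WT. WT replicate 3 was the highest library. *Hpd* fell by 0.28 on the log2 scale (SE 0.08, edgeR adjusted p = 0.0441). Its call was lost on leaving out C75S replicate 1 (adjusted p = 0.198) or 3 (0.114) or WT replicate 2 (0.069) or 3 (0.305), and with DESeq2 (0.0647) and limma-voom (0.0728).

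*Hgd*, homogentisate dioxygenase, acts directly after *Hpd*. It was at 34.4, 43.8 and 41.2 CPM in C75S and 46.9, 45.0 and 43.7 CPM in WT (log2 fold change -0.18, SE 0.08, edgeR adjusted p = 0.279), and C75S replicate 1 was its lowest library. The other members were closer to 0, with *Tat*, the transaminase that opens the route, at 0.03, *Fah*, its last enzyme, at -0.06 and *Qdpr*, which recycles the cofactor tetrahydrobiopterin, at 0.01.

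In histidine breakdown 1 of 4 members fell and 0 rose, against 1.37% and 1.74% of all genes. *Ftcd* moves the formimino group of the histidine product to folate (ENSMUSG00000001155, chromosome 10, 76575648 to 76590338 on the plus strand). It was at 214, 238 and 238 CPM in C75S and 266, 266 and 269.5 CPM in WT, where the libraries differed by an SD of 1.90 CPM. It fell by 0.22 on the log2 scale (SE 0.05, edgeR adjusted p = 0.0156), and missed the threshold without C75S replicate 1 (0.108) or without WT replicate 2 (0.076) or 3 (0.0559). The earlier enzymes *Hal*, *Uroc1* and *Amdhd1* were at log2 fold changes of 0.08, -0.08 and -0.10, each within its standard error of 0. *Ftcd*, at 77.9 CPM per kb, stood above *Uroc1* at 7.08, *Amdhd1* at 4.70 and *Hal* at 0.591.

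*Aass*, the single lysine enzyme among the members, carries out the opening steps of lysine breakdown by way of saccharopine. It lies on chromosome 6 (ENSMUSG00000029695, 23072173 to 23132986 on the minus strand) and was at 78.1, 87.5 and 87.6 CPM in C75S and 51.5, 60.5 and 70.2 CPM in WT. No C75S library reached down to WT, where the spread was wider. It rose by 0.48 on the log2 scale (SE 0.09, edgeR adjusted p = 0.0188), and missed the threshold without C75S replicate 3 (0.0501) or WT replicate 2 (0.0764).

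In pyrimidine breakdown *Dpys*, dihydropyrimidinase, fell (ENSMUSG00000022304, chromosome 15, 39768487 to 39857470 on the minus strand). It was at 14.7, 21.4 and 17.97 CPM in C75S and 22.1, 23.8 and 27.3 CPM in WT, so that C75S replicate 2 lay just under the lowest WT library. The log2 fold change was -0.43 (SE 0.12, edgeR adjusted p = 0.0477). The call did not hold on leaving out C75S replicate 1 (0.202) or 3 (0.121) or WT replicate 2 (0.129) or 3 (0.212), or among genes with at least 1 CPM in every library (0.0536). *Upb1*, beta-ureidopropionase, which acts after it and yields beta-alanine, was at -0.02.

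**Figure D4:**
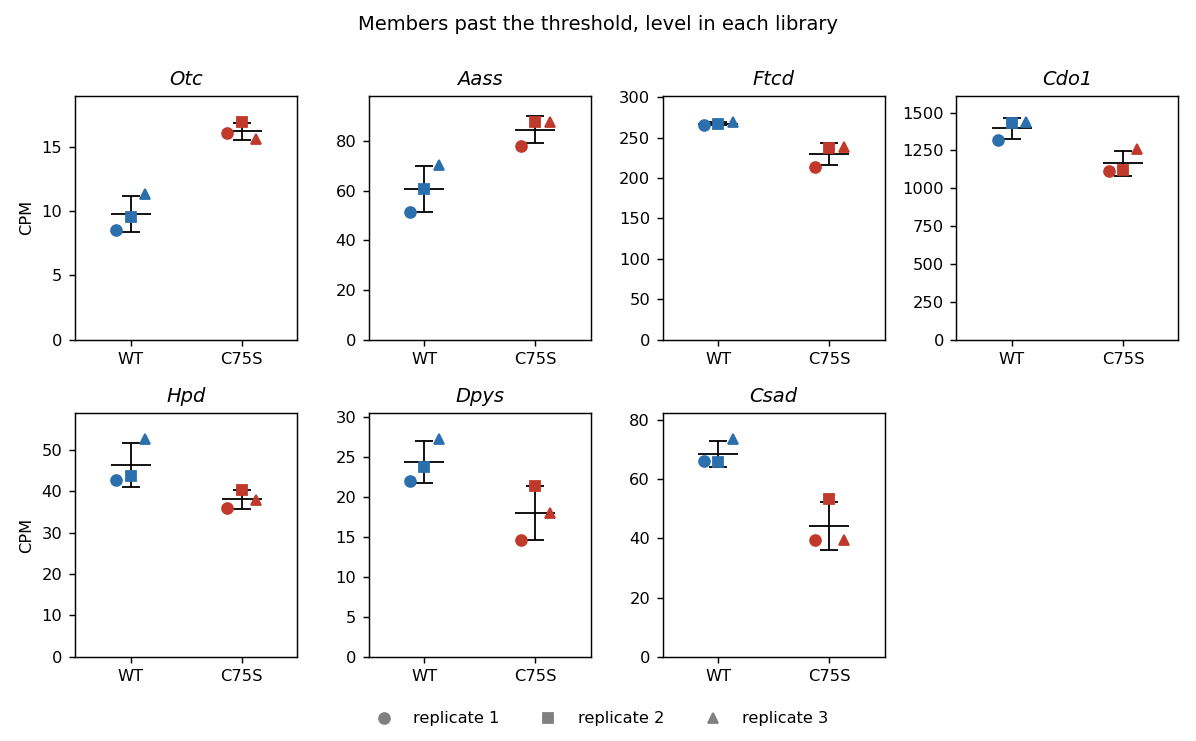
The level of the 7 members past the threshold is shown in CPM on a linear axis from 0, with 1 symbol per library, WT in blue, C75S in red, and the mean ± SD (n = 3) in black. In each panel the libraries of the 2 genotypes do not overlap, with *Otc* and *Aass* higher in C75S and the other 5 lower.

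In the remaining pathways 0 members passed the adjusted threshold. *Gls2*, the liver glutaminase, was at 24.5, 25.2 and 25.0 CPM in C75S and 18.1, 25.2 and 21.3 CPM in WT (log2 fold change 0.21, SE 0.10, edgeR adjusted p = 0.347), with WT replicates 1 and 3 below every C75S library and WT replicate 2 level with them. The transaminases *Got1*, *Got2*, *Gpt* and *Gpt2* and *Glud1* lay between -0.06 and 0.08. *Prodh2* was at 5.63, 7.02 and 5.03 CPM in C75S and 7.60, 9.60 and 7.18 CPM in WT, without overlap (log2 fold change -0.46, SE 0.16, edgeR adjusted p = 0.146). *Oat*, ornithine aminotransferase, was at -0.30 (SE 0.13, edgeR adjusted p = 0.383), while *Prodh*, which starts proline oxidation, and *Aldh4a1*, which completes it, were at 0.04 and 0.01. In GENCODE M21 *Aldh4a1* shares 32.5% of its exonic bases with *Gm21969* on the same strand. Reads within those bases were counted to neither gene if the counting used the same exons, and its annotation release is not given.

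All 5 tryptophan members had small positive values, from 0.04 to 0.20, with 0 at an unadjusted p-value under 0.05. *Tdo2*, which opens the indole ring, was at 0.04, and *Kmo*, *Kynu*, *Haao* and *Acmsd* of the kynurenine route at 0.04, 0.12, 0.20 and 0.04. Among serine and glycine members *Gldc*, of the glycine cleavage system, was at 0.08, *Sdsl* at 0.13, *Agxt*, which detoxifies glyoxylate, at 0.29 (SE 0.18) and *Sds* at -0.11 (SE 0.34). The libraries of *Sdsl* did not overlap, at 17.4 to 18.4 CPM in C75S and 15.9 to 16.8 CPM in WT. All 4 branched chain members had negative values, with *Bckdha* and *Bckdhb*, subunits of the branched chain keto acid dehydrogenase, at -0.15 each, *Bcat2* at -0.05 and *Ivd*, isovaleryl-CoA dehydrogenase, at -0.01. The median standard error of a member's log2 fold change was 0.08, so differences of this size could not be told from 0.

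The start regions of the members that moved are shown for comparison of the genes that rose with those that fell. For 5 of the 7, the bases from 170 to 21 before the start site were taken from the RefSeq promoter table (GRCm38.p6). They are printed 5′ to 3′ on the strand of the gene, with no GENCODE exon in the window. *Dpys* was not in the table, and the stretch of *Cdo1* is not reported here. Capitals mark matches, on either strand, to TATAAA (bound by TBP), the box CCAAT (bound by NF-Y), TTGCNNAA (C/EBP), TGACG (core of the cyclic AMP response element), GTTAAT (part of the HNF1 site), CAAAG (HNF4 core) or TGTTCT (part of the glucocorticoid receptor site). The stretches lie at chrX:10252135-10252284 (plus) for *Otc*, chr6:23133007-23133156 (minus) for *Aass*, chr15:102189064-102189213 (minus) for *Csad*, chr5:123182744-123182893 (minus) for *Hpd* and chr10:76575478-76575627 (plus) for *Ftcd*. For *Csad*, which has 2 start sites in the table, the one nearest the principal GENCODE transcript was taken.
Otc: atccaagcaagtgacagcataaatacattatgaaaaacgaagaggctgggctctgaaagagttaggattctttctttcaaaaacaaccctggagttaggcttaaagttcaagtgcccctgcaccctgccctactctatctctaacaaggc
Aass: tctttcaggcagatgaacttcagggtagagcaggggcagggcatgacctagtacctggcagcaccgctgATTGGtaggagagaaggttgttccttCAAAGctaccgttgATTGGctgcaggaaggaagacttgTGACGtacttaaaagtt
Csad: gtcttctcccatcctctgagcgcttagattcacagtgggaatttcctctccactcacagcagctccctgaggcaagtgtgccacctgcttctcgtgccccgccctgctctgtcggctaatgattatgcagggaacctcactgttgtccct
Hpd: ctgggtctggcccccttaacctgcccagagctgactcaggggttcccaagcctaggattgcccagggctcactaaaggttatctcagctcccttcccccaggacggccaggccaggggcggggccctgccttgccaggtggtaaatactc
Ftcd: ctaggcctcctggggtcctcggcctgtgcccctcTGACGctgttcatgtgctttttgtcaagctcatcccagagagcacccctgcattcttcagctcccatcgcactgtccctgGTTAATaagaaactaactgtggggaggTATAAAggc

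*Otc*, *Csad* and *Hpd* held no match to these letters in this window. *Aass* held CCAAT on the opposite strand at 2 places, a match to CAAAG between them, and nearer the start a match to TGACG. *Ftcd* held TGACG once, then the letters of the HNF1 part site, and a TATA box match nearest the start. Among the 32851 windows of the same length in the table, TATAAA was present in 7.75%, CCAAT in 24.6%, TTGCNNAA in 5.69%, TGACG in 12.4%, GTTAAT in 3.86%, CAAAG in 32.2% and TGTTCT in 9.66%. No motif was shared by both members that rose or by all those printed that fell. A match is a run of letters and not a tested site.

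Other enzymes of the same pathways were examined from a list of 80 genes, of which 73 could be tested. Of these 4 fell (5.48%, against 1.37% of all genes lower) and 0 rose, with 35 positive and 38 negative values and a median of -0.01. By pathway 0 of 5 tested passed among urea cycle and ammonia genes, 1 of 5 for tyrosine and phenylalanine, 1 of 7 for tryptophan and 1 of 14 for serine and glycine. It was 0 of 16 for branched chain amino acids, 0 of 5 for lysine, 0 of 4 for proline and arginine and 0 of 4 for pyrimidines. *Pipox*, which oxidises sarcosine and pipecolate, was at 94.5, 119.6 and 102 CPM in C75S and 129, 122 and 135 CPM in WT, and fell by 0.29 on the log2 scale (edgeR adjusted p = 0.0305). *Kyat1*, a kynurenine aminotransferase, fell by 0.25 (0.025) and *Ddc*, aromatic amino acid decarboxylase, by 0.22 (0.0496) on the log2 scale. *Pipox* and *Kyat1* each lost the call in 4 of 15 alternative fits and *Ddc* in 7, and all 3 lost it without C75S replicate 1.

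Read beside the members, the 5 further lysine genes *Aldh7a1*, *Gcdh*, *Hykk*, *Phykpl* and *Dhtkd1* were at log2 fold changes of 0.06, 0.10, 0.03, -0.05 and -0.16, and *Dpyd*, the enzyme before *Dpys*, was at -0.14 (edgeR adjusted p = 0.21). The ornithine carrier *Slc25a15* was at 0.02 and glutamine synthetase, *Glul*, at 0.11. Of 21 amino acid transporters 20 were tested and 0 passed, with values from -0.40 to 0.69. An unadjusted edgeR p-value under 0.05 was found for 5, and for 13.4% of all genes tested. Of these 5, *Slc7a2*, a carrier of arginine, lysine and ornithine in hepatocytes, was at -0.28 (SE 0.08, edgeR adjusted p = 0.0795) and *Slc38a2*, a carrier of small neutral amino acids, at -0.11 (0.334), both with overlap. *Slc7a5*, a carrier of large neutral amino acids, was at 0.29 (SE 0.09, edgeR adjusted p = 0.0941), the cystine carrier *Slc7a11* at 0.45 (0.265) and *Slc43a1* at 0.69 (0.221). These 3 were higher in C75S without overlap, as were 9.02% of all genes tested.

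Among 16 regulators of these pathways 1 fell and 0 rose, against 1.37% and 1.74% of all genes. *Foxo1*, a factor that insulin signalling keeps out of the nucleus, was at 136, 138 and 147 CPM in C75S and 155, 170.4 and 169 CPM in WT. It fell by 0.23 on the log2 scale (SE 0.05, edgeR adjusted p = 0.0148), and did not pass on leaving out C75S replicate 1 (0.0675) or 2 (0.0614) or WT replicate 2 (0.117) or 3 (0.0693). The glucagon receptor *Gcgr*, the glucocorticoid receptor *Nr3c1*, *Cebpa*, *Cebpb* and *Hnf4a* lay between -0.11 and 0.04 and did not pass.

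Genes that mark the lobule's zones moved in both directions. Of 8 periportal genes 2 rose, *Cyp2f2* (log2 fold change 0.54, edgeR adjusted p = 0.000434) and *Cdh1* (0.29, 0.0014), and 2 fell, *Hsd17b13* (-0.25, 0.0188) and *G6pc*, glucose-6-phosphatase (-1.05, 0.0307). Of 5 pericentral genes tested out of 7, *Cyp2e1* rose (0.31, 0.00908) and 0 fell. Over all genes tested 1.74% rose and 1.37% fell. These zone lists, too, were chosen with earlier results of these data known. *Cyp2f2* and *Cdh1* kept their calls in all 15 alternative fits. *Cyp2e1* lost its call without WT replicate 3 (0.0651), *Hsd17b13* without C75S replicate 1 (0.101), WT replicate 2 (0.0744) or WT replicate 3 (0.143), and *G6pc* on leaving out C75S replicate 1 (0.151) or 2 (0.124) or WT replicate 1 (0.171) or 2 (0.0725), and with limma-voom (0.0576).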

How the data were processed

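RNA sequencing counts from 6 libraries of mouse hepatocytes were used. Each library has 1 deposited file of raw counts by Ensembl gene, laid out as STAR writes them. The submitters' processing notes name Trim Galore 0.6.6, STAR 2.7.9a, edgeR 3.36.0 and the builds mm10 and GRCm38. The annotation release is not given in the sources used here. Reads matching several places were listed apart by the authors and not counted to genes.

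The reverse-strand counts were used, since they summed to 33.3 times the forward-strand counts, and the 4 summary rows were left out. Unmapped, multimapping, no-feature and ambiguous reads made up 4.37% to 5.81%, 17.98% to 18.5%, 4.99% to 5.55% and 0.891% to 0.926% of each library. Names, positions and exonic lengths came from GENCODE M21 (GRCm38), which held 55227 of the 55487 gene identifiers. Genes were filtered with edgeR's filterByExpr (minimum count 10, total 15), leaving 12741 and all 50 members, at 18 to 62073 counts per library. Library sizes were scaled by TMM. The test was a robust quasi-likelihood fit (edgeR 4.0.16 in R 4.3.3) with genotype as the single term. P-values were two-sided and adjusted by Benjamini-Hochberg over all genes, with a threshold of 0.05. The standard error is the log2 fold change divided by the square root of F. CPM values use TMM-scaled library sizes.

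The members and gene lists were chosen with earlier results of these data known. Values per library are given for members at an unadjusted p-value under 0.05 and for the urea cycle enzymes, and genes of the other lists are named where they passed, except 1 that is not reported here. *Sdsl*, *Slc7a2* and the other genes named from those lists without passing were named after their values were seen. On simulated counts for 12741 genes with 200 changed by 1.5-fold, the test recovered 71.0%. Of its calls 7.19% were false, a share above the threshold of 0.05. Smaller changes were not simulated, and only 2 of the 7 called members changed by over 1.5-fold. The counts of libraries of the same genotype differed beyond sampling noise (chi-square per degree of freedom 4.05 to 8.99). Alternatives were DESeq2 1.42.0, limma-voom (limma 3.58.1), scaling by RLE, upper quartile or library size, other filters, unstranded counts, a replicate block and leaving out each library.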

Additional observations from a re-analysis of the deposited data

How the results depend on the processing

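The number of members called, 7, was 6 to 10 with DESeq2, limma-voom, the 3 other scalings (RLE, upper quartile, library size), the stricter filter, unstranded counts and the replicate block. It was 11 with no filter beyond 1 count, where all 7 were among the 11. Leaving out a library gave 2 to 8 members, and 201 to 355 of all genes against 396. The count over all genes was 372 with limma-voom to 573 with no filter (290 higher and 283 lower, against 222 and 174). The cause was not tested. Leaving out a library leaves 2 in that genotype and fewer residual degrees of freedom. The median log2 fold change of the members stayed between -0.043 and 0.038, within the spread between libraries. *Ass1*, at 0.04, ranged from -0.0045 to 0.083 in the fits that left out a library, turning negative without C75S replicate 3, and was not called in any fit.

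Replicate numbers showed no pairing of the libraries over all genes. The deviations of same-numbered libraries from their genotype means correlated across genes at 0.017, -0.040 and 0.025, and those of differently numbered libraries at -0.044 to 0.024. A correlation over all genes cannot exclude a pairing that touches only some of them, and the labels do not name one. With the number as a replicate block 480 genes and 10 members were called, the 7 among them, and *Cps1* and *Arg1* passed. At these depths a member at a few CPM, such as *Sds*, *Hal* or *Haao*, had a standard error of 0.17 to 0.34, so a change of that size was not detectable.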

Other observations

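Reads on the strand opposite to a member entered the alternative fit with unstranded counts and no other comparison. For 48 of the 50 members they came to under 5% of the reads on the gene's own strand. For *Bcat2*, the mitochondrial branched chain transaminase, they came to 132%, at 136, 167 and 145 reads in C75S and 172, 127 and 177 in WT, against 92, 132 and 106 and 121, 137 and 112 on its own strand. For *Sds* they came to 53.0%, at 16, 12 and 14 reads in C75S and 15, 13 and 19 in WT. For these genes an unstranded count would mix both strands, and the genotypes overlapped on each strand.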
